A study of Mus musculus with 8 samples.

Results

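The SLC25 family of mitochondrial carriers was examined in small intestinal crypt organoids from MG53-TG mice and from wild type (WT) mice. The family was taken as every gene whose mouse symbol starts with Slc25a, apart from 2 that are not analysed here, together with the relatives Ucp2, Mtch1 and Mtch2. Of 48 such genes in the annotation, 41 had an expression value and 37 reached a mean of 0.5 FPKM over the 8 samples, FPKM being a read count scaled for transcript length and for the size of the library. These 37 members are described here, among the 10707 of 13706 genes with a value that reached the same mean.

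Bulk RNA-seq was available for 4 MG53-TG and 4 WT organoid samples. MG53-TG mice overexpress MG53 (gene Trim72), a TRIM-family protein best known for membrane repair in muscle, throughout the body, and the study used WT littermates as their controls. The labels name MG53-TG and WT, as does the study's own account of the organoid sequencing in one place, while another passage speaks of organoids from MG53-TG mice crossed to an Lgr5 reporter knock-in line. The labels were followed here, and whether the samples also carried the Lgr5 allele was not tested. In the study's general organoid methods, crypts freed from the intestine with EDTA were grown in Matrigel with IntestiCult medium and passaged. The paper does not say if the sequenced samples had been passaged. No other treatment of either group is named in the sources used here, and the age of the mice is not given there. The labels number the samples 1 to 4 in each group but do not say that each came from its own mouse, so p-values measure the spread between these samples, which may be in part technical.

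SLC25 proteins are small carriers with a repeated fold that sit mainly in the inner mitochondrial membrane. They exchange nucleotides, phosphate, carboxylates, amino acids, cofactors and iron between the cytosol and the matrix, and so set which reactions of the mitochondrion can be fed or drained. In the small intestine, mitochondria burn glutamine and fatty acids and make citrulline from ornithine, and both uses depend on carriers of this family. A few members (Mtch1, Mtch2 and Slc25a46) lie in the outer membrane and work in protein insertion, apoptosis or mitochondrial shape rather than in transport across the inner one.

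The samples matched their labels at the transgene. Trim72 was not listed in the 4 WT samples, while MG53-TG samples 1 to 4 had 16.4, 27.4, 31.9 and 36.5 FPKM of it. Within MG53-TG, samples 3 and 4 stood apart from samples 1 and 2. Across genes, Pearson's r of log2(FPKM + 1) was 0.977 between MG53-TG 1 and 2 and 0.975 between 3 and 4, and 0.942 to 0.956 between these pairs of samples. It was 0.897 to 0.902 between MG53-TG 1 and 2 and the WT samples, and 0.829 to 0.852 between MG53-TG 3 and 4 and the WT samples. The labels give no batch for this split, so each pair of MG53-TG samples was also compared with WT. The value is given where it ended or added the call of a reported member.

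Markers of the cell types of the crypt and villus differed between the groups. The summed level of 9 enterocyte markers was 961 to 1133 FPKM in WT and 11471 to 12513 FPKM in MG53-TG, and all 9 passed the test as higher. The summed level of 7 stem cell markers was 417 to 592 FPKM in WT, 216 and 227 FPKM in MG53-TG 1 and 2, and 63.5 and 43.2 FPKM in MG53-TG 3 and 4. The 7 proliferation markers summed to 465 to 502 FPKM in WT and 132 to 347 FPKM in MG53-TG. The Paneth cell markers with a value (6 of 7) summed to 1228 to 1647 FPKM in WT and 262 to 459 FPKM in MG53-TG, and the 7 goblet cell markers to 413 to 456 FPKM and 121 to 326 FPKM. Of the 6 goblet markers tested, 4 were lower and none was higher, and Zg16 was at 5.25 to 11.2 FPKM in WT, 7.57 and 11.8 FPKM in MG53-TG 1 and 2, and 53.0 and 62.2 FPKM in MG53-TG 3 and 4 (limma adjusted p = 0.116, and 0.000501 with samples 3 and 4 only). The markers tested were lower in 6 of 7 cases for stem cells, 6 of 7 for proliferation and 6 of 6 for Paneth cells, and higher in 4 of 6 for enteroendocrine cells. The Paneth count includes Defa22, whose call was favoured by the filter. Its mean was 7.62 FPKM in WT and 0.0281 FPKM in MG53-TG, so it reached the filter through WT alone. Lyz1 lost its call under median-of-ratios scaling (limma adjusted p = 0.0600), where 5 Paneth markers were lower, and with MG53-TG samples 1 and 2 only (0.136). Mcm2 also lost its call with samples 1 and 2 only (limma adjusted p = 0.0507). Lyz1, Mcm2, Top2a, Rgmb and Gip lost theirs without some single samples. The 7 enteroendocrine markers summed to 223 to 246 FPKM in WT and 360 to 511 FPKM in MG53-TG. The epithelial markers, at 1979 to 2316 FPKM in WT and 1484 to 1648 FPKM in MG53-TG, were abundant in every sample. Of these 6, 5 were lower and none was higher, and under median-of-ratios scaling 3 were lower. The immune markers with a value (3 of 6) summed to 3.75 to 9.17 FPKM in WT and 0.469 to 1.28 FPKM in MG53-TG, nearly all from Cd68, which was lower (log2 fold change -1.84, limma adjusted p = 0.000519). The mesenchymal markers with a value (4 of 6) summed to 1.80 to 3.24 FPKM in WT and 1.31 to 5.10 FPKM in MG53-TG. Of these, Col1a2 and Col3a1 had no entry in WT or MG53-TG 1, were at 0.739 to 2.07 FPKM and 0.904 to 1.62 FPKM in MG53-TG 2 to 4 and are given as values only, because they reached the filter through MG53-TG alone. The tuft cell markers with a value (3 of 5) stayed within 1.73 FPKM in every sample. The part of this difference in cell types in the member results was not tested, and in bulk samples fewer cells of a type cannot be told apart from less of an RNA per cell.

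Before the values, the promoters of the members with the largest changes are shown, because these members moved in opposite directions from quite different starting levels. RefSeq held a promoter for 29 of the 37 members, and in 28 of them its start lay within 150 bases of the highest start in the deposited files. In these 28 windows, from 250 bases before to 50 bases after the RefSeq start (300 bases, GRCm38.p6), 8 short motifs were searched on both strands. The 250 bases before the start are printed 5′ to 3′ on the gene's strand for 3 members that rose and 1 that fell, with the matches in capitals. Slc25a45 starts after chr19:5877572-5877821 (plus strand), Slc25a34 after chr4:141623835-141624084 (minus strand), Slc25a23 after chr17:57059843-57060092 (minus strand) and Slc25a4 after chr8:46211063-46211312 (minus strand).
Slc25a45: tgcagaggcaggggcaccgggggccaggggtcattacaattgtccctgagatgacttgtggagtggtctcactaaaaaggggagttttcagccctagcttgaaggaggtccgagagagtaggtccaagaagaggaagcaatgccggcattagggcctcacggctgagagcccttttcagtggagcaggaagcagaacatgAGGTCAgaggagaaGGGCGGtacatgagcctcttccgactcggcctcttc
Slc25a34: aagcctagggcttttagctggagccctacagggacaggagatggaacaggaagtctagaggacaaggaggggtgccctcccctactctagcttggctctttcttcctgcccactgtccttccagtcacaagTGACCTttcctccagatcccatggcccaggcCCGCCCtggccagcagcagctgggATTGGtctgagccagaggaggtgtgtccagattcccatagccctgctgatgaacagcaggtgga
Slc25a23: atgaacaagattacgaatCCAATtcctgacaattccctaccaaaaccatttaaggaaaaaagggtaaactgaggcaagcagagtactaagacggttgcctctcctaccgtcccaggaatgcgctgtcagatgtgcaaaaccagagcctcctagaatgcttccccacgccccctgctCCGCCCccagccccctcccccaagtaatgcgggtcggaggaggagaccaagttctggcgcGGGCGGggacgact
Slc25a4: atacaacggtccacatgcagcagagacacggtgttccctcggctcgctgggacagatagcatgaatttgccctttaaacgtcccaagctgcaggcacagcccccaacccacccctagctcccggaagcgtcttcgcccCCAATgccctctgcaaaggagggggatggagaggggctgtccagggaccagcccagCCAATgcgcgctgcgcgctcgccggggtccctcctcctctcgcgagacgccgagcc

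The capitals mark a GC box (GGGCGG), a nuclear receptor half-site (AGGTCA) or a CCAAT box (CCAAT), each read on either strand. The upstream windows of Slc25a45 and Slc25a34, the members with the largest rises, each held a half-site and a GC box. Slc25a23 held GC boxes and a CCAAT box, and Slc25a4 held only CCAAT boxes in the printed bases. Over the 28 member windows, the GC box was in 26 (92.9%), against 35.7% of the 32851 RefSeq promoters of all genes. The CCAAT box was in 13 (46.4%), against 37.4%. Unlike the member windows, the 32851 promoters were not limited to genes expressed here or to promoters near a deposited start. The shares therefore do not compare like promoters, and no motif difference is drawn from them. The half-site was in 4 (14.3%, Mtch2, Slc25a34, Slc25a39 and Slc25a45), against 16.3%. The E-box CACGTG was in 5 (17.9%), against 7.15%, and the NRF1 core GCGCATGC was in the Mtch2 window alone (3.57%), against 2.71%. The letters of the HNF4 motif CAAAGTCCA, the ERR element TCAAGGTCA and the TATA box TATAAA were in none of the 28 windows, and in 0.475%, 0.423% and 13.6% of all promoters.

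Across the family, 16 members were higher and 7 were lower in MG53-TG than in WT, and 14 did not pass the test (limma on log2(FPKM + 1), Benjamini-Hochberg adjusted p within 0.05 over the 10707 genes). Among the 7 is Slc25a48, which reached the 0.5 FPKM filter through WT alone, so its call was favoured by the filter. Much of the transcriptome passed the same test, at 45.0% of all genes, with 15.7% higher and 29.3% lower. Of the members, 43.2% were higher and 18.9% were lower. The median log2 fold change was 0.18 over the members and -0.17 over all genes tested. The groups did not overlap in 21 of the 37 members, and in 44.7% of all genes. With median-of-ratios scaling, which moved the median of all genes by 0.16, 18 members were higher and 5 were lower. Under that scaling the share of calls that were higher went from 34.9% to 50.2% over all genes and from 69.6% to 78.3% over the members. Against WT, MG53-TG samples 1 and 2 alone gave 14 higher and 4 lower members, where 1490 of all genes were higher and 2359 lower (35.9% called). Samples 3 and 4 alone gave 15 higher and 8 lower members, where 1787 of all genes were higher and 4064 lower (54.6% called).

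**Figure D1:**
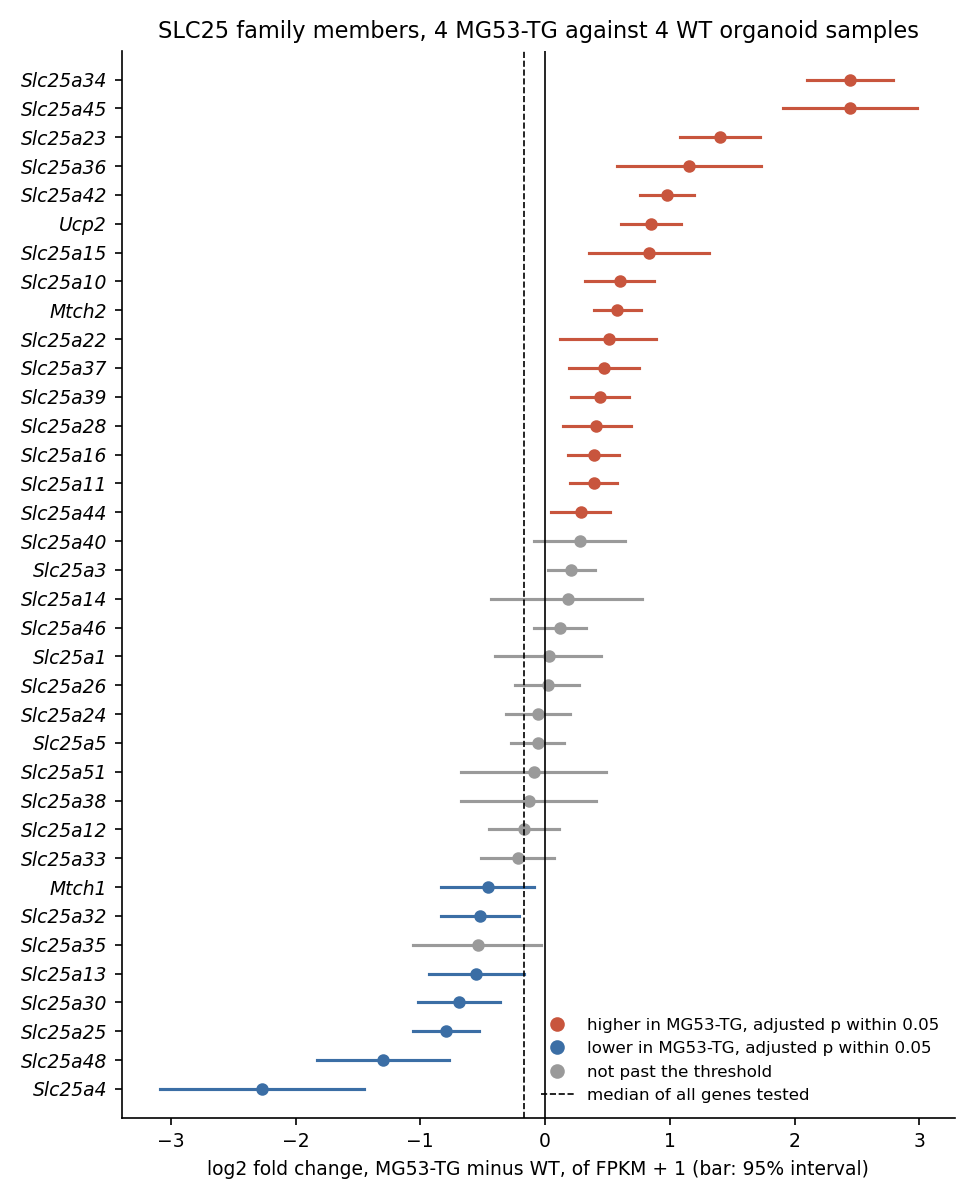
Log2 fold change of the reported members (horizontal axis, MG53-TG minus WT, of FPKM + 1), with its 95% interval as a bar and the colour giving the limma call. The changes run from 2.44 for Slc25a34 and Slc25a45 at the top to -2.27 for Slc25a4 at the bottom, and the dashed line is the median of all genes tested, -0.17.

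The family's RNA was unevenly spread over its members. Slc25a5 and Slc25a3, the carriers that bring ADP and phosphate to ATP synthase, held 33.3 to 36.4% and 17.0 to 20.0% of the members' summed FPKM in WT. Their shares in MG53-TG were 27.3 to 32.1% and 17.5 to 19.3%. The sum itself was 1332 to 1426 FPKM in WT and 1528 to 1660 FPKM in MG53-TG. By mean FPKM, Slc25a5 and Slc25a3 ranked first and second in both groups, Ucp2 went from rank 5 to 3, Slc25a4 from 9 to 24, Slc25a45 from 36 to 22 and Slc25a34 from 37 to 23. The coefficient of variation between samples had a median over members of 11.7% in WT and 16.3% in MG53-TG.

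Among the carriers of adenine nucleotides, Slc25a4 had the largest fall of the family on the log2(FPKM + 1) scale, while by the ratio of mean FPKM, MG53-TG to WT, Slc25a48 was lower still (0.120 against 0.211). Slc25a4 encodes ANT1, the ADP/ATP exchanger that prevails in muscle and other post-mitotic tissue, and Slc25a5 encodes ANT2, the form of dividing and epithelial cells. Slc25a4 (chr8:46206797-46211284, minus strand) was at 35.7, 37.6, 33.4 and 31.5 FPKM over the WT samples 1 to 4 and at 11.5, 10.3, 4.68 and 2.62 FPKM over the MG53-TG samples 1 to 4. Every MG53-TG sample lay below every WT sample, and samples 3 and 4 lay below samples 1 and 2. The log2 fold change was -2.27 (SE 0.36, limma adjusted p = 0.00131). All of this signal came from 1 start, whose first exon spans chr8:46210812-46211030, just downstream of the promoter printed above. Slc25a5 (chrX:36795651-36798807, plus strand) was at 509, 475, 519 and 450 FPKM in WT and at 478, 532, 434 and 430 FPKM in MG53-TG. The groups overlapped, with a log2 fold change of -0.06 (95% interval -0.27 to 0.15, limma adjusted p = 0.605). Scaled by median of ratios, that value was 0.13 and did not pass either. Slc25a4 made up 6.04 to 7.34% of the RNA of this pair in WT and 0.605 to 2.35% in MG53-TG. Because the products are close paralogues and the treatment of reads that fit both is not given in the sources used here, a part of either value could belong to the other. For Slc25a4 in MG53-TG, at 0.605 to 2.35% of the pair, that part need not be small, and it was not measured. In WT 3 and MG53-TG 2 the start of Slc25a5 was placed further upstream (chrX:36794825-36794882), outside the annotated gene, and that start is part of its sum.

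The calcium-regulated carriers of ATP-Mg and phosphate, which fill or empty the matrix adenine nucleotide pool, went in different directions. Slc25a23 rose from 5.84, 5.38, 4.60 and 6.40 FPKM in WT to 16.6, 20.0, 14.9 and 13.9 FPKM in MG53-TG. The groups were widely separated, with a log2 fold change of 1.40 (SE 0.14, limma adjusted p = 0.000104). Slc25a25 fell from 7.81, 7.14, 6.66 and 8.86 FPKM in WT to 4.48, 3.90, 3.78 and 3.67 FPKM in MG53-TG, a log2 fold change of -0.79 (SE 0.12, limma adjusted p = 0.000916). Slc25a24, the other member of the set, was at 18.1, 21.6, 24.7 and 20.8 FPKM in WT and at 21.2, 18.2, 21.5 and 20.5 FPKM in MG53-TG, with overlapping groups. In WT, Slc25a24 was the most abundant of the set, whereas in MG53-TG Slc25a23 came close to it. The phosphate carrier Slc25a3 was at 227 to 271 FPKM in WT and 267 to 308 FPKM in MG53-TG (limma adjusted p = 0.0730), and passed the test only under median-of-ratios scaling (adjusted p = 0.00775) and with MG53-TG samples 3 and 4 left out (adjusted p = 0.0489).

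**Figure D2:**
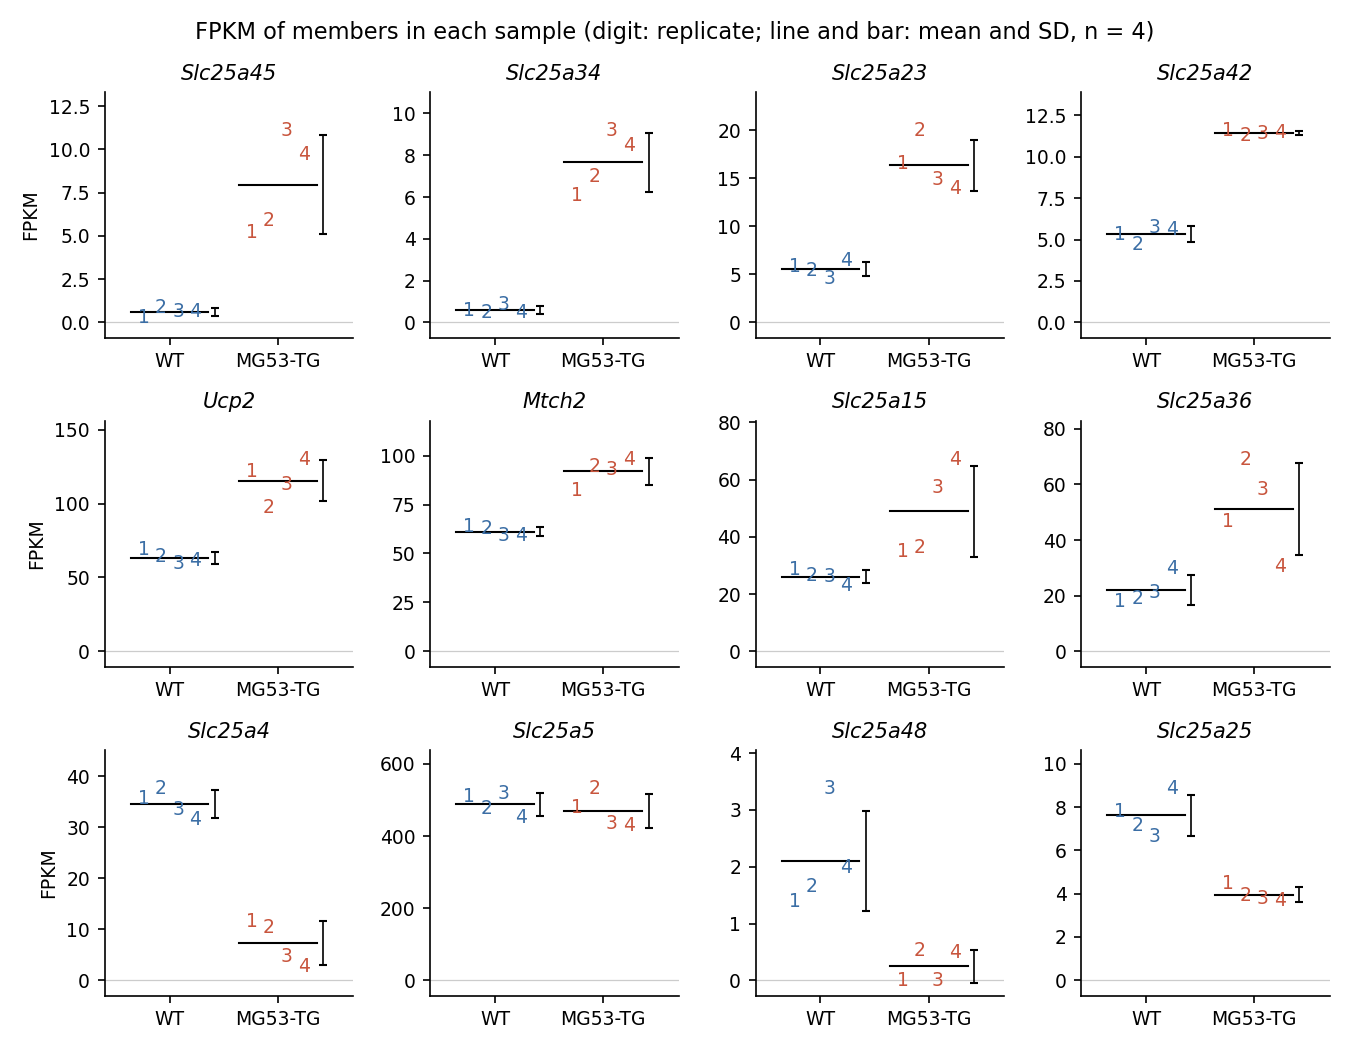
FPKM (vertical axis) of 12 members in each WT and MG53-TG sample, with digits giving the replicate and the line and bar the mean and SD of 4 samples. The groups are apart in the 11 panels other than Slc25a5, where both lie between 430 and 532 FPKM.

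Members whose substrate is less settled held the largest rises. Slc25a45 (chr19:5877808-5885878, plus strand) was at 0.287, 0.832, 0.625 and 0.647 FPKM in WT and at 5.18, 5.88, 11.1 and 9.71 FPKM in MG53-TG. It was low but listed in every WT sample, and MG53-TG samples 3 and 4 were the highest. Its log2 fold change was 2.44 (SE 0.23, limma adjusted p = 8.09e-05), and the ratio of the mean FPKM was 13.3. Slc25a34 (chr4:141618824-141623821, minus strand) was at 0.559, 0.476, 0.863 and 0.450 FPKM in WT and at 6.05, 6.98, 9.19 and 8.45 FPKM in MG53-TG. As for Slc25a45, MG53-TG samples 3 and 4 were above samples 1 and 2. Slc25a34 had a log2 fold change of 2.44 (SE 0.15, limma adjusted p = 8.16e-06) and a ratio of mean FPKM of 13.1. No start of Slc25a34 was listed in WT 2, so its value there rests on the end of the transcript. MG53-TG 2 and 4 also held an end on the opposite strand outside the gene, of 0.672 and 0.492 FPKM, that the files name Slc25a34.

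Slc25a48 went the other way at a low level. It was at 1.38, 1.66, 3.38 and 1.98 FPKM in WT and at 0.519 and 0.485 FPKM in MG53-TG 2 and 4, and no start was listed in MG53-TG 1 and 3. With these absent entries taken as 0, its log2 fold change was -1.30. It was part of the fit and is counted among the lower members. Its p-value is not given and nothing is drawn from its call, because the MG53-TG mean of 0.251 FPKM lay below the filter. The end of the same transcript was listed in MG53-TG 1 at 0.562 FPKM, so the absent starts do not show that the RNA was absent. Slc25a35 was at 0.613 to 2.26 FPKM in WT and 0.296 to 0.781 FPKM in MG53-TG, with overlapping groups (limma adjusted p = 0.0804), and passed only without WT 3 (adjusted p = 0.0393). Slc25a29, Slc25a43, Slc25a47 and Slc25a53 stayed below the mean of 0.5 FPKM, with no value above 0.863 FPKM in any sample.

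Among the cofactor carriers, Slc25a42 and Slc25a16, which are linked to coenzyme A in the matrix, both rose. Slc25a42 was at 5.28, 4.72, 5.73 and 5.62 FPKM in WT and at 11.6, 11.3, 11.4 and 11.5 FPKM in MG53-TG. The MG53-TG samples were nearly equal, also across the split between samples 1 and 2 and samples 3 and 4, and the log2 fold change was 0.98 (SE 0.10, limma adjusted p = 9.04e-05). Slc25a16 went from 6.63 to 7.28 FPKM in WT to 8.99 to 9.65 FPKM in MG53-TG, a log2 fold change of 0.39 (SE 0.09, limma adjusted p = 0.00806). Slc25a32, which carries folate and FAD, fell from 5.66, 5.02, 4.94 and 4.61 FPKM in WT to 3.39, 4.18, 2.66 and 2.80 FPKM in MG53-TG. Its groups did not overlap and its log2 fold change was -0.52 (SE 0.14, limma adjusted p = 0.0149), which with MG53-TG samples 3 and 4 left out was -0.34 (adjusted p = 0.0753). Slc25a26 (S-adenosylmethionine) and Slc25a51 (NAD+) had overlapping groups and log2 fold changes of 0.02 and -0.09.

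The pyrimidine nucleotide carriers Slc25a33 and Slc25a36 bring precursors for mitochondrial DNA and RNA into the matrix. Slc25a36 was at 17.9, 18.9, 21.1 and 29.7 FPKM in WT and at 46.8, 69.0, 58.1 and 30.4 FPKM in MG53-TG, a log2 fold change of 1.15 (SE 0.25, limma adjusted p = 0.00642). The groups were apart only by the gap between WT 4 and MG53-TG 4. This sum joined 3 starts that the samples used differently. A start inside the gene (first exon chr9:97084393-97084470) gave 20.8 FPKM in WT 4 and 31.3 and 47.7 FPKM in MG53-TG 1 and 2, gave 0.364 FPKM in WT 3, and was not listed in the other samples. The most upstream start (chr9:97110911-97111157) was at 16.6, 16.2, 18.1 and 5.38 FPKM in WT and at 5.07, 10.6, 46.1 and 18.7 FPKM in MG53-TG. On that start alone the groups overlapped, and the log2 fold change was 0.20 (exact two-sided permutation test, p = 0.857). On end events only, Slc25a36 had a difference of 0.53 on the log2 scale that did not pass (adjusted p = 0.345). Another start, with its first exon at chr9:97089491-97090027, was at 1.14 to 3.47 FPKM in WT and 10.1 to 11.9 FPKM in MG53-TG, and its groups did not overlap. Slc25a33 was at 7.64, 6.90, 7.06 and 6.24 FPKM in WT and at 6.84, 6.52, 4.90 and 5.20 FPKM in MG53-TG, with overlapping groups (limma adjusted p = 0.187). With MG53-TG samples 1 and 2 left out, its log2 fold change was -0.39 (adjusted p = 0.0217).

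The carboxylate carriers feed the malate-aspartate shuttle, export citrate and balance the dicarboxylates of the matrix. The dicarboxylate carrier Slc25a10 rose from 23.7, 24.4, 25.2 and 26.1 FPKM in WT to 31.3, 35.8, 44.6 and 41.7 FPKM in MG53-TG, a log2 fold change of 0.60 (SE 0.12, limma adjusted p = 0.00426). The oxoglutarate-malate carrier Slc25a11 rose from 38.3, 38.8, 38.9 and 34.3 FPKM to 47.0, 50.6, 48.1 and 52.6 FPKM, a log2 fold change of 0.39 (SE 0.08, limma adjusted p = 0.00577). Neither pair of groups overlapped. The citrate carrier Slc25a1 was at 80.5, 63.5, 66.9 and 63.8 FPKM in WT and at 47.1, 72.0, 76.5 and 90.8 FPKM in MG53-TG. MG53-TG 1 was the lowest and MG53-TG 4 the highest of the 8 samples, and the log2 fold change was 0.03 (95% interval -0.40 to 0.45, limma adjusted p = 0.915).

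Among the amino acid carriers, the ornithine-citrulline exchanger Slc25a15 changed most. It rose from 28.5, 26.6, 26.3 and 22.9 FPKM in WT to 35.0, 36.2, 57.4 and 67.1 FPKM in MG53-TG, with samples 3 and 4 well above samples 1 and 2. The log2 fold change was 0.83 (SE 0.21, limma adjusted p = 0.0123). The glutamate carrier Slc25a22 was at 3.54 to 4.61 FPKM in WT and at 9.02, 5.26, 5.81 and 5.24 FPKM in MG53-TG. It passed the test (log2 fold change 0.51, limma adjusted p = 0.0381), but leaving out 1 sample at a time ended the call in 5 of 8 cases, WT 1, 2, 3 or 4 or MG53-TG 3 (adjusted p 0.0340 to 0.0968 over the 8). With MG53-TG samples 3 and 4 left out its adjusted p was 0.0509, and the call was also lost without a filter on low values and on its highest start alone, which held 52.8% of the sum (exact two-sided permutation test, p = 0.0571). The branched-chain amino acid carrier Slc25a44 went from 12.2 to 15.8 FPKM in WT to 17.1 to 18.0 FPKM in MG53-TG (log2 fold change 0.29, limma adjusted p = 0.0470), and its call held in 1 of the 8 cases, without WT 2, and was lost without any other sample (adjusted p 0.0470 to 0.107). Slc25a44 also did not pass with sample weights, on end events only or with either pair of MG53-TG samples alone (adjusted p = 0.111 for samples 1 and 2, and 0.0783 for samples 3 and 4).

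The aspartate-glutamate carriers run the malate-aspartate shuttle and supply cytosolic aspartate. Slc25a13 (citrin) was at 18.7, 15.7, 27.7 and 19.4 FPKM in WT and at 11.5, 13.5, 15.1 and 13.5 FPKM in MG53-TG. The groups were separated by the narrow gap between WT 2 and MG53-TG 3, and the log2 fold change was -0.55 (SE 0.17, limma adjusted p = 0.0275). The call was lost without WT 4, MG53-TG 1 or MG53-TG 4 (adjusted p 0.0185 to 0.0623 over the 8 cases), under median-of-ratios scaling (adjusted p = 0.141) and quantile normalization (adjusted p = 0.0987), with sample weights and on end events only. It was also lost with either pair of MG53-TG samples alone (adjusted p = 0.0633 for samples 1 and 2, and 0.112 for samples 3 and 4). Slc25a12 (aralar) was at 6.81, 5.15, 4.91 and 4.76 FPKM in WT and at 4.31, 4.88, 4.69 and 4.71 FPKM in MG53-TG, with overlapping groups (limma adjusted p = 0.291). On its highest start alone, with 98.0% of the sum, Slc25a12 was at 4.76 to 6.76 FPKM in WT and 4.22 to 4.71 FPKM in MG53-TG, where the groups did not overlap (exact two-sided permutation test, p = 0.0286). That p is the smallest that 4 against 4 samples allow and is not adjusted over members. It cannot be set beside the limma adjusted p, and Slc25a12 is not counted as lower. The glycine carrier Slc25a38, which serves heme synthesis, was at 1.88 to 4.42 FPKM in WT and 2.32 to 4.20 FPKM in MG53-TG.

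The iron and glutathione carriers were higher or did not pass. Mitoferrin-2 (Slc25a28) was at 9.76, 9.48, 12.0 and 10.4 FPKM in WT and at 16.0, 14.3, 11.8 and 14.6 FPKM in MG53-TG. MG53-TG 3 fell inside the WT range, and the log2 fold change of 0.41 (SE 0.12, limma adjusted p = 0.0234) lost its call without WT 1, WT 2, WT 4, MG53-TG 1 or MG53-TG 4 (adjusted p 0.0143 to 0.0644 over the 8 cases). With MG53-TG samples 1 and 2 left out it was 0.31 (adjusted p = 0.0859). Mitoferrin-1 (Slc25a37) was at 12.1, 13.6, 12.0 and 13.7 FPKM in WT and at 18.9, 14.6, 19.5 and 20.4 FPKM in MG53-TG, a log2 fold change of 0.47 (SE 0.12, limma adjusted p = 0.0140) that passed without any 1 sample. With MG53-TG samples 3 and 4 left out it was 0.34 and did not pass (adjusted p = 0.0807). The glutathione carrier Slc25a39 rose from 74.3, 87.5, 79.0 and 84.0 FPKM to 116, 121, 94.7 and 111 FPKM, a log2 fold change of 0.44 (SE 0.10, limma adjusted p = 0.00767). Its highest start, with 66.7% of the sum, was at 52.0 to 57.2 FPKM in WT and 57.0 to 100 FPKM in MG53-TG, so on that start alone the groups overlapped and the value of 0.36 did not pass (exact two-sided permutation test, p = 0.0571). Its paralogue Slc25a40 was at 1.28, 1.24, 1.60 and 1.93 FPKM in WT and at 1.47, 1.84, 2.76 and 2.17 FPKM in MG53-TG and did not pass (limma adjusted p = 0.193). With MG53-TG samples 1 and 2 left out it passed, at a log2 fold change of 0.47 (adjusted p = 0.0438).

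In the uncoupling protein group, Ucp2 and Slc25a30 moved apart. Ucp2 limits the mitochondrial use of glucose-derived carbon and is abundant in the gut. It rose from 68.8, 64.1, 59.3 and 61.8 FPKM in WT to 122, 97.2, 113 and 130 FPKM in MG53-TG. Every MG53-TG sample lay well above every WT sample, and the log2 fold change was 0.85 (SE 0.11, limma adjusted p = 0.000352). Slc25a30 fell from 2.85, 3.47, 2.62 and 3.56 FPKM to 1.52, 2.03, 1.57 and 1.13 FPKM, a log2 fold change of -0.69 (SE 0.14, limma adjusted p = 0.00515). Slc25a14 was at 0.695 to 2.64 FPKM in WT and 1.22 to 2.38 FPKM in MG53-TG and did not pass.

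In the outer membrane, Mtch2, an insertase for tail-anchored proteins that also binds the apoptosis factor tBID, rose from 63.7, 62.9, 59.0 and 59.2 FPKM in WT to 82.2, 94.6, 92.9 and 98.1 FPKM in MG53-TG. Its log2 fold change was 0.58 (SE 0.08, limma adjusted p = 0.000826), with the groups well apart. Mtch1 was at 44.4, 36.9, 54.4 and 44.0 FPKM in WT and at 40.6, 28.2, 34.8 and 26.3 FPKM in MG53-TG. The groups overlapped, the log2 fold change was -0.46 (SE 0.16, limma adjusted p = 0.0450), and the call was lost without WT 1, WT 3, WT 4, MG53-TG 2, MG53-TG 3 or MG53-TG 4 (adjusted p 0.0184 to 0.111 over the 8 cases). Scaled by median of ratios, Mtch1 was at -0.28 and did not pass (adjusted p = 0.205). The call was also lost under quantile normalization (adjusted p = 0.0743), without a filter on low values, with sample weights and with MG53-TG samples 3 and 4 left out (0.172). Its sum was divided mainly between starts at chr17:29340421-29340490 and chr17:29347467-29347934, in shares that varied between samples of the same group, and WT 4 held a further 13.4 FPKM at chr17:29347121-29347293. The most upstream of these alone (chr17:29347467-29347934) had a log2 fold change of 0.02 (exact two-sided permutation test, p = 0.971). Slc25a46, a regulator of mitochondrial fission and of lipid supply, was at 12.6 to 13.7 FPKM in WT and 13.3 to 15.9 FPKM in MG53-TG (limma adjusted p = 0.318), and passed under median-of-ratios scaling (adjusted p = 0.0401) and quantile normalization (adjusted p = 0.0452).

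Ratios between related members within a sample do not depend on the scaling of that sample beyond the pseudocount of 1, and 9 pairs were compared. In 5 pairs the groups did not overlap, each at the smallest p that 4 against 4 samples allow (exact two-sided permutation test, p = 0.0286), which adjusted over the 9 pairs was 0.0514. Taken singly, 44.7% of all genes tested did not overlap, and the share over other gene pairs was not counted. The count of 5 pairs is therefore no result about related members. The mean log2 ratio of Slc25a4 to Slc25a5 was -3.78 ± 0.12 (SD, n = 4) in WT and -5.99 ± 0.73 (SD, n = 4) in MG53-TG, a difference of -2.21. That of Slc25a23 to Slc25a24 went from -1.77 ± 0.32 to -0.31 ± 0.30, a difference of 1.46. That of Slc25a24 to Slc25a25 went from 1.37 ± 0.30 to 2.11 ± 0.13, a difference of 0.74. The ratios of Slc25a33 to Slc25a36 (difference -1.37) and of Mtch1 to Mtch2 (difference -1.04) rest on the divided starts described above. The other pairs overlapped between groups, at a difference of 0.38 for Slc25a12 to Slc25a13 (exact permutation p = 0.171), -0.06 for Slc25a28 to Slc25a37 (exact permutation p = 0.743), 0.16 for Slc25a39 to Slc25a40 (exact permutation p = 0.486) and 0.20 for Slc25a10 to Slc25a11 (exact permutation p = 0.171).

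**Figure D3:**
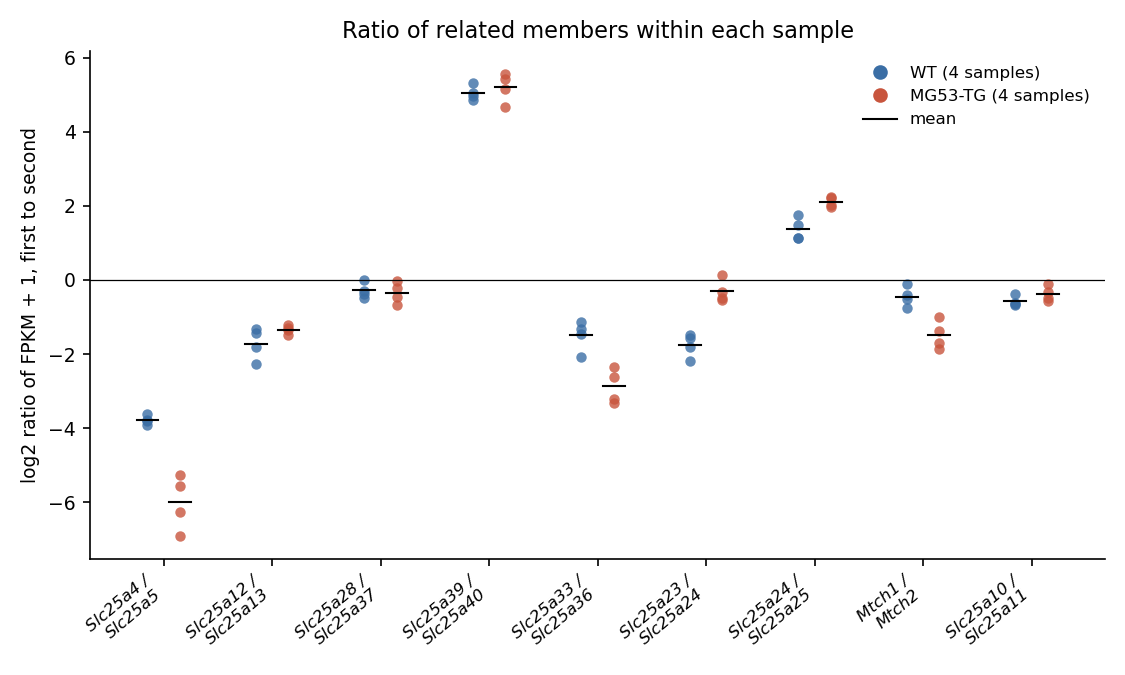
Log2 ratio of FPKM + 1 (vertical axis) of the first to the second gene of 9 related pairs in each sample, with black lines for the group means of 4 samples. Slc25a4 to Slc25a5 lies at -3.92 to -3.62 in WT and -6.90 to -5.26 in MG53-TG, and the ratios of Slc25a28 to Slc25a37 overlap.

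The split between MG53-TG samples was also followed over the family. In 7 members (Slc25a1, Slc25a10, Slc25a15, Slc25a34, Slc25a37, Slc25a40 and Slc25a45) MG53-TG 3 and 4 were both higher than 1 and 2, and in 12 (among them Slc25a3, Slc25a4, Slc25a5, Slc25a14, Slc25a16, Slc25a23, Slc25a25, Slc25a32, Slc25a33, Slc25a38 and Slc25a39) both were lower. This is a description of samples that were seen to differ, with no test. The share of all genes that split in this way was not counted, and so few samples can separate by chance. These counts are therefore no result about the family. Of the 23 called members, 14 kept their call under every alternative that was run for them: Mtch2, Ucp2, Slc25a4, Slc25a10, Slc25a11, Slc25a15, Slc25a16, Slc25a23, Slc25a25, Slc25a30, Slc25a34, Slc25a42, Slc25a45 and Slc25a48. The last is in this count because it was part of the fit. Its call was favoured by the filter, as given above, so nothing is drawn from its being kept.

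Exon use within members could be measured for 3 cassette exons, out of 1200 exons compared over all genes. None of the 3 passed the test (limma, adjusted p within 0.05) or had an unadjusted p under 0.05, against 13 of all exons past the threshold (1.08%) and 137 with an unadjusted p under 0.05. A 27-base exon of Mtch2 (chr2:90852840-90852866) was included in 75.1, 77.3, 79.3 and 81.5% of transcripts in WT and in 71.0, 73.2, 71.7 and 73.0% in MG53-TG. The groups did not overlap, but the limma adjusted p was 0.622. An 85-base exon of Mtch1 (chr17:29342823-29342907) was at 71.3 to 91.8% in WT and 81.9 to 91.9% in MG53-TG, and a 128-base exon of Slc25a44 (chr3:88415988-88416115) at 85.2 to 90.9% and 81.7 to 97.5%.

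The genes that work with the carriers were followed in 8 lists, whose counts are to be read against the 15.7% higher, the 29.3% lower and the median of -0.17 over all genes tested. Counts under median-of-ratios scaling are to be read against 2213 higher and 2196 lower of the 10707 genes, and a median of -0.01, under that scaling. Among the enzymes around the ornithine-citrulline exchanger, 4 of 8 were higher and 2 were lower (25.0%), with a median log2 fold change of 0.28. Otc, which makes citrulline from the ornithine that Slc25a15 brings in, went from 10.8 to 13.1 FPKM to 39.3 to 59.6 FPKM (log2 fold change 1.94, limma adjusted p = 2.88e-05). Its highest values were in MG53-TG 3 and 4, as those of Slc25a15 were. Oat, the aminotransferase that links ornithine with proline and glutamate, was at 473, 460, 476 and 453 FPKM in WT and at 1683, 1531, 1513 and 1598 FPKM in MG53-TG (log2 fold change 1.76, limma adjusted p = 4.47e-07). Lower in this list were Ass1 (-1.11) and Cps1 (-0.69), which use citrulline and make carbamoyl phosphate.

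Beside the aspartate-glutamate and oxoglutarate carriers, 2 of 4 malate-aspartate shuttle enzymes were higher and 1 was lower (median 0.35), and with median-of-ratios scaling 3 were higher and none was lower. Mdh2 rose from 209 to 237 FPKM in WT to 359 to 484 FPKM in MG53-TG (log2 fold change 0.91, limma adjusted p = 0.000241) and Mdh1 had a log2 fold change of 0.57, whereas Got2 was lower by limma at -0.35. Under median-of-ratios scaling Got2 was at -0.16 and did not pass (adjusted p = 0.176). Mdh1 lost its call without WT 1 or WT 2 (adjusted p 0.0173 to 0.0528 over the 8 cases), under quantile normalization (0.0552) and with MG53-TG samples 3 and 4 left out (0.0737). Beside the citrate carrier, 1 of 6 enzymes that make or use citrate was higher and 3 were lower (median -0.55), and with median-of-ratios scaling 1 was higher and 2 were lower, as Cs did not pass there (-0.21, adjusted p = 0.203). Acly, which splits exported citrate, fell from 96.0 to 99.8 FPKM to 22.0 to 35.6 FPKM (log2 fold change -1.73, limma adjusted p = 6.41e-05) and Fasn, the fatty acid synthase, had a log2 fold change of -1.49. The folate enzymes of the mitochondrion, which share their substrate with Slc25a32, had 3 of 6 lower and none higher (median -0.72), led by Mthfd1l (log2 fold change -1.81, limma adjusted p = 0.000505) and Shmt2 (-1.70, adjusted p = 0.0179). Shmt2 was at 16.2 and 24.7 FPKM in MG53-TG 1 and 2 and at 6.57 and 3.64 FPKM in 3 and 4, against 32.6 to 38.6 FPKM in WT, and its call was lost without MG53-TG 3 (adjusted p 0.00381 to 0.0522 over the 8 cases).

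In the heme and iron-sulfur list 2 of 8 were higher and 1 was lower (median 0.09), and with median-of-ratios scaling 3 were higher and 1 was lower. Alas1, the first enzyme of heme synthesis, was higher by 0.87 on the log2 scale (limma adjusted p = 0.0259) and the iron-sulfur scaffold Iscu by 0.74 (limma adjusted p = 0.000160). Alas1 lost its call without WT 2, MG53-TG 3 or MG53-TG 4 (adjusted p 0.0181 to 0.0707 over the 8 cases), and with MG53-TG samples 3 and 4 left out it was at 0.45 (adjusted p = 0.189). Of the import machinery that brings carriers to the inner membrane, 2 of 13 were higher (15.4%) and 4 were lower (30.8%), close to the shares over all genes, with a median of -0.15, and with median-of-ratios scaling 2 were higher and 1 was lower. The pore protein Tomm40 fell from 59.7 to 69.9 FPKM to 27.9 to 47.2 FPKM (log2 fold change -0.83, limma adjusted p = 0.00508) and the small chaperone Timm9 had a log2 fold change of -0.68 (adjusted p = 0.0364). Timm9 lost its call without WT 1, 2, 3 or 4 or MG53-TG 3 (adjusted p 0.0232 to 0.0921 over the 8 cases), under median-of-ratios scaling (0.0639), under quantile normalization (0.0539) and with MG53-TG samples 3 and 4 left out, where it was at -0.32 (0.0827). Of the outer membrane channels and the pyruvate carrier, which is no SLC25 protein, 1 of 5 was higher, Mpc1 (log2 fold change 1.61, limma adjusted p = 0.0213), and the VDAC genes did not pass (median of the list 0.12). Mpc1 lost its call without WT 2 or MG53-TG 4 (adjusted p 0.0109 to 0.0600 over the 8 cases) and with either pair of MG53-TG samples alone (0.113 and 0.0760). Of 6 fission and fusion genes, Mfn2 was higher (0.32) and Mfn1 was lower (-0.54), or 16.7% each way, with a median of -0.08. Mfn2 lost its call without WT 1, WT 2, WT 4, MG53-TG 3 or MG53-TG 4 (adjusted p 0.0144 to 0.0689 over the 8 cases) and with MG53-TG samples 3 and 4 left out (0.0915), and under median-of-ratios scaling 2 genes of this list were higher and 1 was lower.

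**Figure D4:**
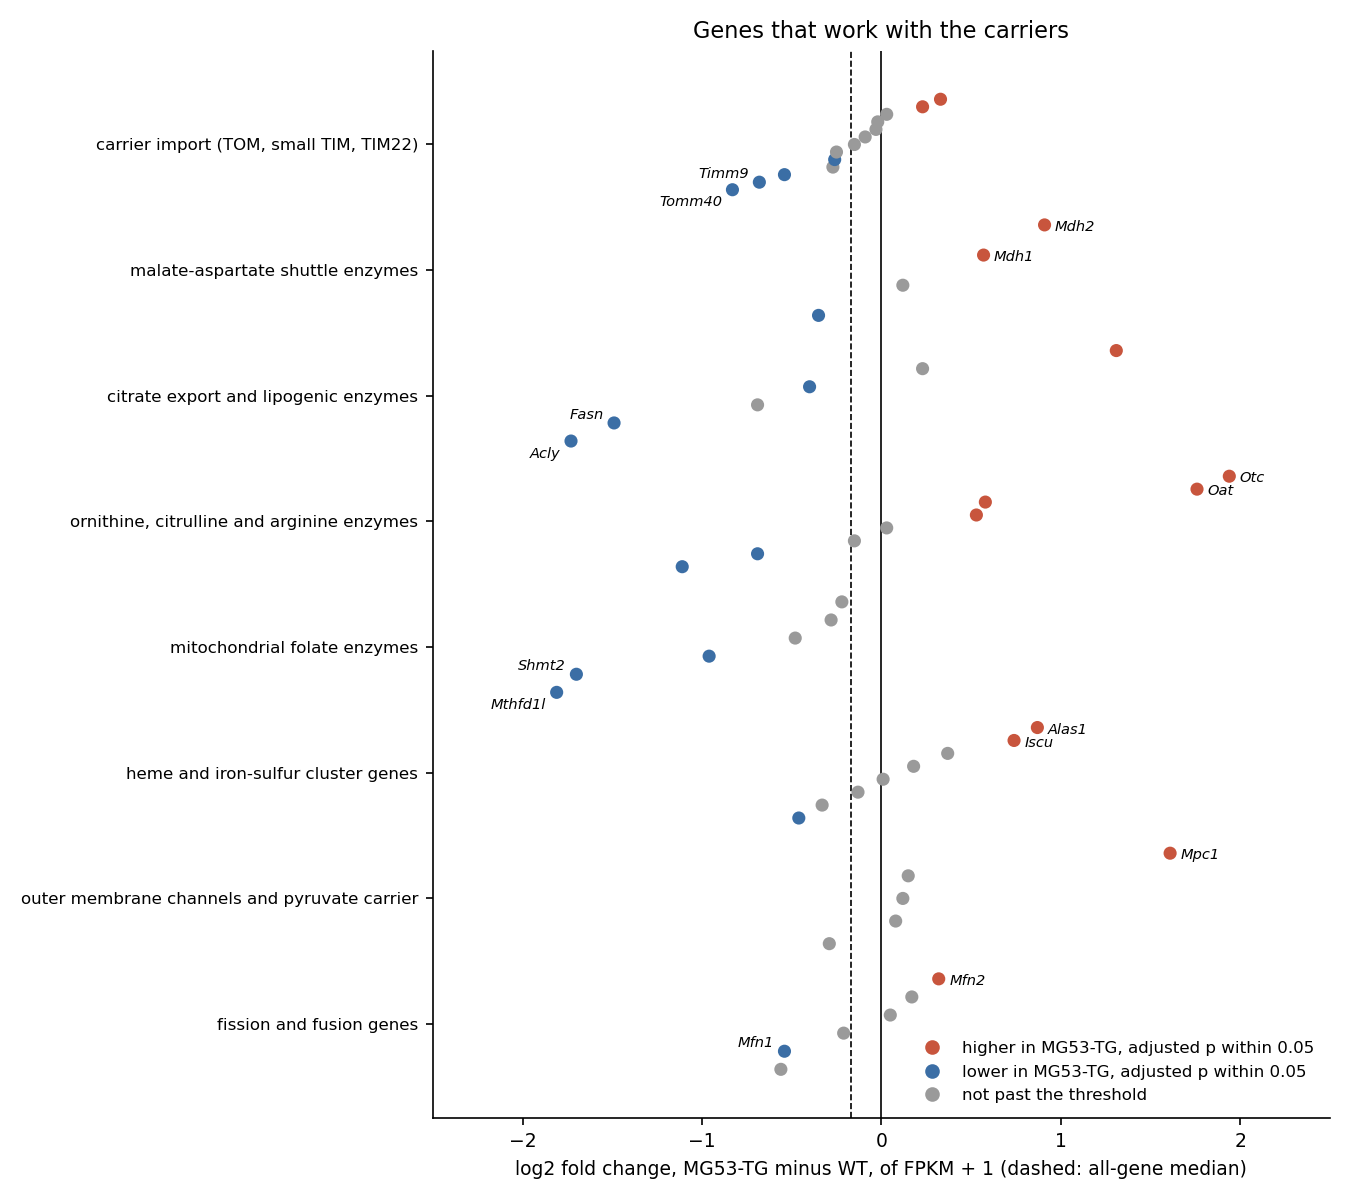
Log2 fold change (horizontal axis, MG53-TG minus WT, of FPKM + 1) of each tested gene in 8 lists of genes that work with the carriers, coloured by the limma call. The points run from -1.81 for Mthfd1l to 1.94 for Otc, with the genes of largest change in each list named.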

How the data were processed

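Bulk RNA-seq of 8 organoid samples (4 WT, 4 MG53-TG) was used. Per the labels, reads were mapped to mm10 (GRCm38), and the submitters' processing notes name cutadapt 1.9.1, HISAT2 2.0.1, HTSeq 0.6.1 and DESeq2. The deposited values are FPKM per transcript event (transcript starts, ends and skipped exons), made by the authors with a tool that is not given in the sources used here. FPKM are estimates, down to 1e-06, so read depth is unknown and could not be recovered.

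A gene's value was the sum of FPKM over its start events, or its end events where their mean was higher. An absent entry was missing where the group's other samples reached a median of 0.5 FPKM (561 genes) and 0 otherwise. Genes whose mean reached 0.5 FPKM were fitted with limma 3.58.1 (R 4.3.3) on log2(FPKM + 1), with adjustment over all genes and no block. Folds are on that scale, which understates the change of low genes. Exon inclusion was compared by limma likewise, for exons of mean inclusion 5 to 95%. Single ratios were compared by exact permutation over 70 relabellings. The script was tested on simulated data. A few items are not reported here. Positions are from GENCODE annotation of GRCm38, 1-based.

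Members and lists were chosen with earlier results of these data known. Per-sample values are given for the called members with the 6 largest rises and 8 largest falls without overlap (6 fell so), for members of related pairs and for members with absent entries, and those of Slc25a1, Slc25a15 and Slc25a22 were added after seeing them. Partner genes are the 2 largest changes past the threshold per list, and the others named were chosen after their values were seen. Alternatives were another pseudocount, filter, scaling, sample weights and event choice, the replicate block, and samples left out. Those that kept events inside the gene or the highest start, or that left out MG53-TG 1 and 2 or 3 and 4, were added after seeing the data. Same-numbered samples did not deviate together (r of -0.0400 to 0.0955).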

Additional observations from a re-analysis of the deposited data

Results flagged for a closer look

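In 72 groups of 4 values, 1 for each reported member and genotype, the distance of the most extreme sample from its nearest neighbour was compared with the group's whole range (Dixon's test), and 3 groups (4.17%) exceeded the 95% limit of 0.829, where chance gives about 1 in 20. WT 4 was low for Slc25a11, at 34.3 FPKM. MG53-TG 1 was high for Slc25a22, at 9.02 FPKM. WT 2 was low for Slc25a38, at 1.88 FPKM.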

How the results depend on the processing

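The count of called members was 23, and 18 to 23 over all alternatives that kept at least 33 members. With end events only, 28 members could be tested, 12 were higher and 4 were lower, against 1282 and 2351 of 8448 genes. With MG53-TG samples 3 and 4 left out 14 were higher and 4 were lower, against 1490 and 2359 of 10707 genes. The replicate block gave 21 called members (14 higher, 7 lower) and 4390 genes. Slc25a28 (limma adjusted p = 0.0661), Slc25a44 (0.0873), Mfn2 (0.0547) and the Paneth marker Lyz1 (0.0522) lost their calls there. Same-numbered samples share only a number. The median over members was 0.21 with a pseudocount of 0.1 or a filter at 2 FPKM, 0.30 with median-of-ratios scaling, 0.27 with quantile normalization or end events only, 0.14 with sample weights or with either pair of MG53-TG samples left out, and 0.10 to 0.24 without 1 sample; all genes stayed between -0.25 and -0.01. Among the members reported, log2 fold changes that changed sign were, apart from Mtch1 (0.02 on its highest start only), of members that did not pass. With median-of-ratios scaling these were Slc25a5 (0.13), Slc25a24 (0.13), Slc25a38 (0.01) and Slc25a51 (0.09). With quantile normalization they were Slc25a1 (-0.01), Slc25a3 (-0.01), Slc25a24 (0.07), Slc25a38 (0.02) and Slc25a51 (0.06). With MG53-TG 3 and 4 left out they were Slc25a1 (-0.23), Slc25a5 (0.05) and Slc25a38 (0.14), and with 1 and 2 left out Slc25a14 (-0.05) and Slc25a51 (0.07). On the highest start only they were Slc25a5 (0.07) and Slc25a26 (-0.03), and on end events only Slc25a26 (-0.08). Without 1 sample the range spanned 0 for Slc25a1 (-0.10 to 0.21), Slc25a14 (-0.02 to 0.35), Slc25a24 (-0.13 to 0.01), Slc25a26 (-0.03 to 0.07) and Slc25a51 (-0.24 to 0.16). On end events the log2 ratio differences of Slc25a39 to Slc25a40 (-0.23) and Mtch1 to Mtch2 (0.26) changed sign, but the end events of Slc25a39, Mtch1 and Mtch2 had means of 0.0371, 0.252 and 0.0529 FPKM, below the 0.5 FPKM filter, so these values are no test of the pairs. The members reported that are not named here kept their direction under these alternatives. The causes were not tested.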

Other observations

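Ucp1, the uncoupling protein of brown fat, lies outside the rule that chose the members. It was listed at 2.96, 2.28, 1.76 and 1.73 FPKM in WT samples 1 to 4 and was not listed in any MG53-TG sample. No test is given, because it reached the filter through WT alone. It was chosen after its values were seen, and the depth behind these values is unknown.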
